A study of Mus musculus with 2 samples.

Results

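Chemokine ligands are the small secreted proteins that draw leukocytes into tissue, and the data here are their transcripts in the stromal vascular fraction (SVF) of epididymal white adipose tissue (eWAT) of male C57BL/6J mice (C57BL/6 in the sample labels). Every gene whose symbol reads Ccl or Cxcl plus a number, Cx3cl1 or Xcl1 was taken, with no use of its counts. This gave 44 of the 27998 features listed, under 38 symbols, of which 32 features had at least 1 transcript. One SVF library came from mice on low-fat diet (LFD) and the other from mice on high-fat diet (HFD), both fed for 24 weeks from 6 weeks of age, so there was 1 library per diet and no genotype or drug difference between them. The number of mice pooled in each library is not given in the sources used here. Transcripts were counted as unique molecular identifiers (UMIs) by droplet sequencing of 3′ ends. A level is given as CPM, a gene's UMIs per 1000000 UMIs of the same barcodes, and it was not divided by gene length because each transcript gives a tag at its end.

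Chemokine ligands are grouped by the spacing of their first cysteines into CC (Ccl), CXC (Cxcl), CX3C and XC families, and they act on G protein-coupled receptors of leukocytes. Many of their genes lie side by side in clusters, and several ligands share a receptor. In adipose tissue they are best known for the recruitment of monocytes in obesity, in which Ccl2 and its receptor Ccr2 take part.

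After barcodes with fewer than 200 genes were left out, 1057 LFD and 1117 HFD barcodes remained, with medians of 6523 and 6598 UMIs, and 0 barcode sequences were shared between the libraries. Barcodes were put into classes by marker UMIs alone. A fibroblast barcode had at least 10 Dcn UMIs, an endothelial barcode at least 3 of Cdh5 and Cldn5, and a mural barcode at least 5 of Rgs5, Kcnj8, Abcc9 and Notch3. A macrophage barcode had at least 10 C1q UMIs and a T cell barcode at least 2 Cd3 UMIs. The check markers that were listed were highest in their own class in both libraries for fibroblasts, endothelial cells and macrophages. For T cells only Lck and Cd2 were checked, 2 of the 5 planned markers, and both were highest there. In mural barcodes 4 of 5 were highest on LFD and 5 of 5 on HFD. Only 5 LFD and 6 HFD mural barcodes were in no other class, so mural and endothelial levels cannot be told apart here. In all, 6.24% of LFD and 10.8% of HFD barcodes were in several classes, and the diet count of each class is also given for barcodes in exactly 1 class. No doublet caller was run.

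With 1 library per diet no test between diets is possible and no p-value is given. Intervals are exact 95% intervals (Poisson for CPM, conditional binomial for a ratio, Clopper-Pearson for a share). They cover counting error only and leave out the spread between mice. A ratio is called past the fold when it is at least 2 or at most 0.5, its interval leaves out 1 and the gene had at least 20 UMIs.

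Chemokine ligands took 0.499% of all UMIs on LFD (36324 UMIs) and 0.699% on HFD (58644 UMIs). Macrophage barcodes gave them the largest share, 1.11% of their UMIs on LFD and 1.19% on HFD. In fibroblast barcodes the share was 0.331% on LFD and 0.468% on HFD, and in endothelial barcodes 0.189% and 0.245%. There were 238 LFD and 337 HFD macrophage barcodes, 388 and 311 fibroblast barcodes, 159 and 226 endothelial barcodes, and 73 and 22 T cell barcodes. A level over a whole library therefore also moves with the number of barcodes of each class.

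Cxcl1 and Cxcl2, both neutrophil attractants, lie close together on chromosome 5, as do Cxcl9 and Cxcl10, both interferon-inducible attractants of T cells. Their promoters are shown because the genes of each pair had different highest classes. Cxcl9 was highest in endothelial barcodes at 284 CPM. Cxcl10 was highest in T cell barcodes at 192 CPM, against 155 CPM in macrophages. Neither of these had a called source. Each line gives the 220 bases just before the gene start, 5′ to 3′ on the strand of the gene, from RefSeq on GRCm38.p6, and capitals mark matches to the motifs named below.
Cxcl1, chr5:90891025-90891244, plus strand: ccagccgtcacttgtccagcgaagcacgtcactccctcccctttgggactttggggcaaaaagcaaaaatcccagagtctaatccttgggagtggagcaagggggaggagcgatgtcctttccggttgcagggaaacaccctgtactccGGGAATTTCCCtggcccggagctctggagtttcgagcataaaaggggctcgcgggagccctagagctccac
Cxcl2, chr5:90903679-90903898, plus strand: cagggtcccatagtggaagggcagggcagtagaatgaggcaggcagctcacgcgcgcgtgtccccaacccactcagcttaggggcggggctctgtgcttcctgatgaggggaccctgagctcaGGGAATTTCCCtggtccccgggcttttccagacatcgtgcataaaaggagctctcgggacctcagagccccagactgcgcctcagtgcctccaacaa
Cxcl9, chr5:92328080-92328299, minus strand: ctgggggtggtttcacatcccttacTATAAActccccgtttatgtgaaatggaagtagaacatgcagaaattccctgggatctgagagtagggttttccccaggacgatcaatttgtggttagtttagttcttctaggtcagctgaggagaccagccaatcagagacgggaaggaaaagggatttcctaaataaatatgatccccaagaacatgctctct
Cxcl10, chr5:92348890-92349109, minus strand: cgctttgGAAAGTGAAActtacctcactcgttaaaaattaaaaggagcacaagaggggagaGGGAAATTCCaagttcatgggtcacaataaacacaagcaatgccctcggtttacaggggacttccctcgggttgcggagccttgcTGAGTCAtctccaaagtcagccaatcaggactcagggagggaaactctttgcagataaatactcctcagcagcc

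The motifs searched on both strands of the 250 bases before each start were the kappaB letters (GGGA and TTCC with any 2 bases between them), the interferon-stimulated response element letters (GAAA and again GAAA with any 2 bases between them), the AP-1 letters TGANTCA and the TATA letters TATAAA. Cxcl1 and Cxcl2 hold the same kappaB run, starting 71 and 97 bases before the start, where matches on both strands overlap. Cxcl10 holds 1 match each to the interferon, kappaB and AP-1 letters, at 213, 159 and 74 bases, and Cxcl9 holds only a TATA match, at 195 bases. RefSeq promoters were matched for 27 of the 38 symbols, giving 34 starts. The kappaB letters were in 5 of these (14.7%), namely those of Cxcl1, Cxcl2, Cxcl3, Cxcl10 and Ccl1, against 1.21% of all 32851 promoters. The interferon letters were in 8.82% of the chemokine starts against 2.98% of all promoters, the AP-1 letters in 11.8% against 6.75% and the TATA letters in 29.4% against 12.4%. These are letter matches and not mapped sites.

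**Figure D1:**
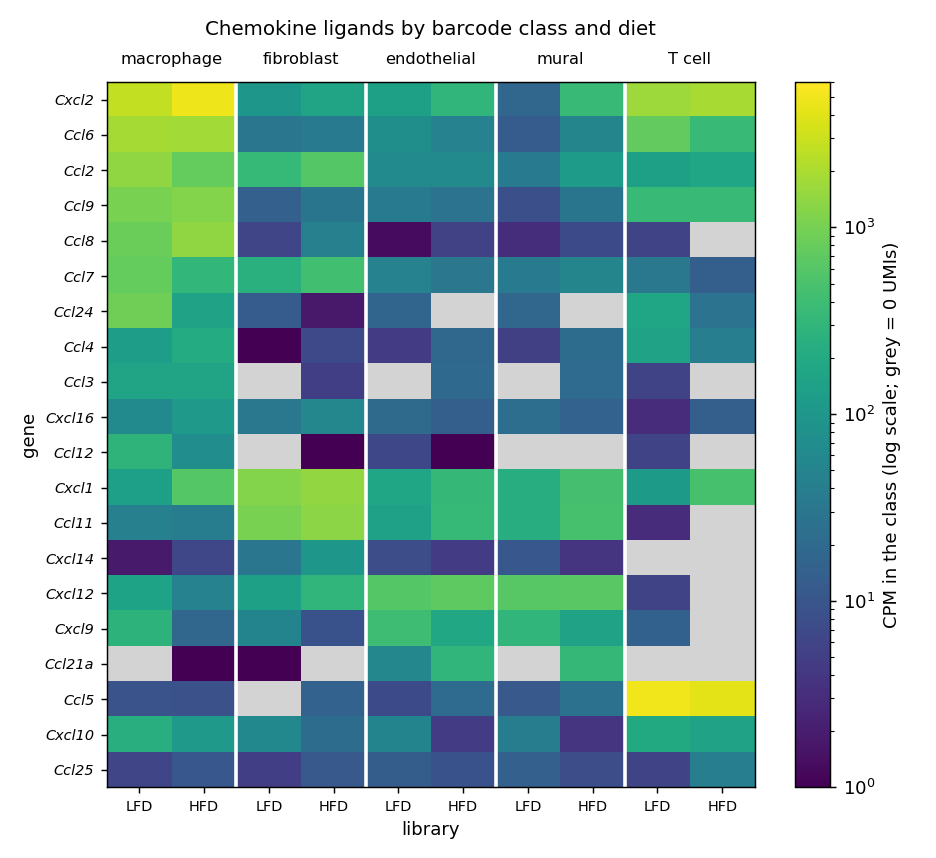
Level of the 20 chemokine ligands with at least 100 UMIs (rows, ordered by the class with the highest level) in each barcode class on LFD and HFD (columns), as CPM on a logarithmic colour scale. Levels under 1 CPM have the darkest colour and 0 UMIs are grey. Most CC ligands are brightest in macrophages, Cxcl1 and Ccl11 in fibroblasts, Cxcl12 and Cxcl9 in the endothelial and mural columns, and Ccl5 in T cells.

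To find the source of each ligand, the class with the highest CPM over both libraries was called where it stood at least 2 times above the next class. Of the 28 ligands with at least 20 UMIs, 18 had such a class. Macrophages were called for 11 ligands, where 4.86% of all genes with at least 20 UMIs were called for them. Fibroblasts were called for 4 (8.86% of all genes) and T cells for 3 (6.47%), namely Ccl5, Xcl1 and Ccl17. The Ccl17 call rests on 3 UMIs in LFD T cell barcodes and 0 on HFD. Endothelial barcodes were called for 0 ligands (0.0464% of all genes) and mural barcodes for 0 (0.00773%), since these classes share their barcodes. In barcodes of exactly 1 class, endothelial cells were called for 3 of 28 ligands, where 5.64% of all genes were called for them. The highest class was the same in both libraries for 18 of the 28 ligands.

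The macrophage ligands were Cxcl2, Ccl6, Ccl2, Ccl9, Ccl8, Ccl24, Ccl3, Cxcl16, Ccl12, Cxcl13 and Ccl22. The sharpest of these was Ccl8, a monocyte attractant, with 1226 CPM in macrophages over both libraries against 23.7 CPM in fibroblasts, the next class. Ccl12, a mouse ligand of Ccr2, stood 29.0 times and Ccl3, a ligand of Ccr1, 13.5 times above the next class. Ccl2, the main monocyte attractant, was less particular to macrophages, at 973 CPM against 459 CPM in fibroblasts. In barcodes of exactly 1 class it stood at 1454 CPM in macrophages and 344 CPM in fibroblasts on LFD. On HFD these levels were 785 and 596 CPM, less than 2 times apart. Ccl7, the neighbour and relative of Ccl2, had no called source, at 462 CPM in macrophages and 329 CPM in fibroblasts. Ccl22, a Ccr4 ligand made by dendritic cells, does not belong with the rest of the list, since 91.5% of its 71 UMIs were in barcodes of no class.

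The fibroblast ligands were Cxcl1, Ccl11, Cxcl14 and Ccl19. Cxcl1 stood at 1317 CPM in fibroblasts, 2.91 times the macrophage level, while Cxcl2 stood at 4115 CPM in macrophages. The pair thus had different highest classes although their starts are close together on chromosome 5 and share the kappaB run shown above. Ccl11, the eotaxin that attracts eosinophils through Ccr3, stood at 1170 CPM in fibroblasts. The other eotaxin detected, Ccl24, was a macrophage ligand at 406 CPM, and Ccl26 had no UMI. Cxcl14 stood at 61.3 CPM in fibroblasts and 6.66 CPM in mural barcodes, the next class.

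Cxcl12, which holds leukocytes through Cxcr4, had 658 CPM in endothelial barcodes. Cxcl9 was highest there at 284 CPM. Cx3cl1, the ligand of Cx3cr1 that is tethered to the membrane, had 47 UMIs and was highest in endothelial barcodes at 8.73 CPM. Ccl21a, which guides Ccr7-bearing cells into lymphatics, came from a handful of barcodes. On LFD 2 endothelial barcodes held its 87 endothelial UMIs, and on HFD 2 barcodes held 556. The HFD barcode with most Ccl21a had 428 UMIs of it, 27 of Prox1 and 84 of Lyve1, both genes of lymphatic endothelium, among 28828 UMIs in all, and it also met the mural threshold.

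Ccl5, a T cell and natural killer (NK) cell product, stood at 4848 CPM in T cell barcodes, 243 times the level in mural barcodes, the next class. Xcl1, the ligand of Xcr1 on cross-presenting dendritic cells, was found in T cell barcodes with 0 UMIs in macrophages, but 69.2% of its 91 UMIs lay in barcodes of no class. Among those barcodes, the ones with NK markers held 10 of 35 Xcl1 UMIs on LFD and 28 of 28 on HFD, and the other 25 on LFD lay in barcodes that met no marker list. They also held 236 and 212 UMIs of Ccl5, at 6941 and 7112 CPM. T cell barcodes carried macrophage ligands too. On LFD 12 of 73 T cell barcodes had Cxcl2, with 552 UMIs in all of which 232 were in 1 barcode, and on HFD 130 of 137 UMIs were in 1 barcode.

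Ccl22 and Ccl17, both ligands of Ccr4, were outside the main classes. Barcodes with dendritic cell markers held 12 of 12 Ccl22 UMIs in barcodes of no class on LFD and 41 of 53 on HFD, where the other 12 lay in barcodes that met no marker list. These were 2 barcodes on LFD and 5 on HFD. Ccl17 had 51 UMIs, of which 90.2% were in barcodes of no class, mostly in ones that met no marker list. The remaining ligands with 20 to 99 UMIs were Cxcl13 (95 UMIs), Ccl27a (92), Cxcl3 (40) and Ccl19 (36). Cxcl13 was highest in macrophages, yet 36 of its 48 HFD macrophage UMIs were in 1 barcode. Ccl27a was highest in fibroblasts at 7.94 CPM and Cxcl3 in T cells at 7.38 CPM, neither with a called source. In T-cell-only barcodes Cxcl3 had 3 UMIs on LFD and 0 on HFD. Macrophage-only barcodes held 3 Cxcl3 UMIs on LFD and 17 on HFD. Ccl19 stood at 5.83 CPM in fibroblasts. Ccl25, with 132 UMIs, was spread over all classes and had no called source. Cxcl5 had 10 UMIs, Ccl1 and Ccl28 4 each and Ccl21b 1. Ccl20, Ccl21c, Ccl26, Ccl27b, Cxcl15 and Cxcl17 had 0. Ccl19, Ccl21a, Ccl21b, Ccl21c and Ccl27a have several near-identical copies in the feature table, under 11 entries, so the split of reads between copies is uncertain.

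The diet comparison asks how ligand levels differ between LFD and HFD eWAT. Over all barcodes, 6 of 28 ligands were past the fold with higher levels on HFD, where 2.7% of all genes were, and 4 with lower levels, where 6.2% of all genes were. Higher were Cxcl2, Ccl8, Ccl21a, Cxcl14, Ccl22 and Cxcl3, and lower were Ccl5, Ccl24, Cxcl9 and Ccl12. For Ccl5 the whole-library level was 293 CPM on LFD and 92.5 CPM on HFD, while within T cell barcodes it was 4976 and 4255 CPM. The number of T cell barcodes was 73 on LFD and 22 on HFD.

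**Figure D2:**
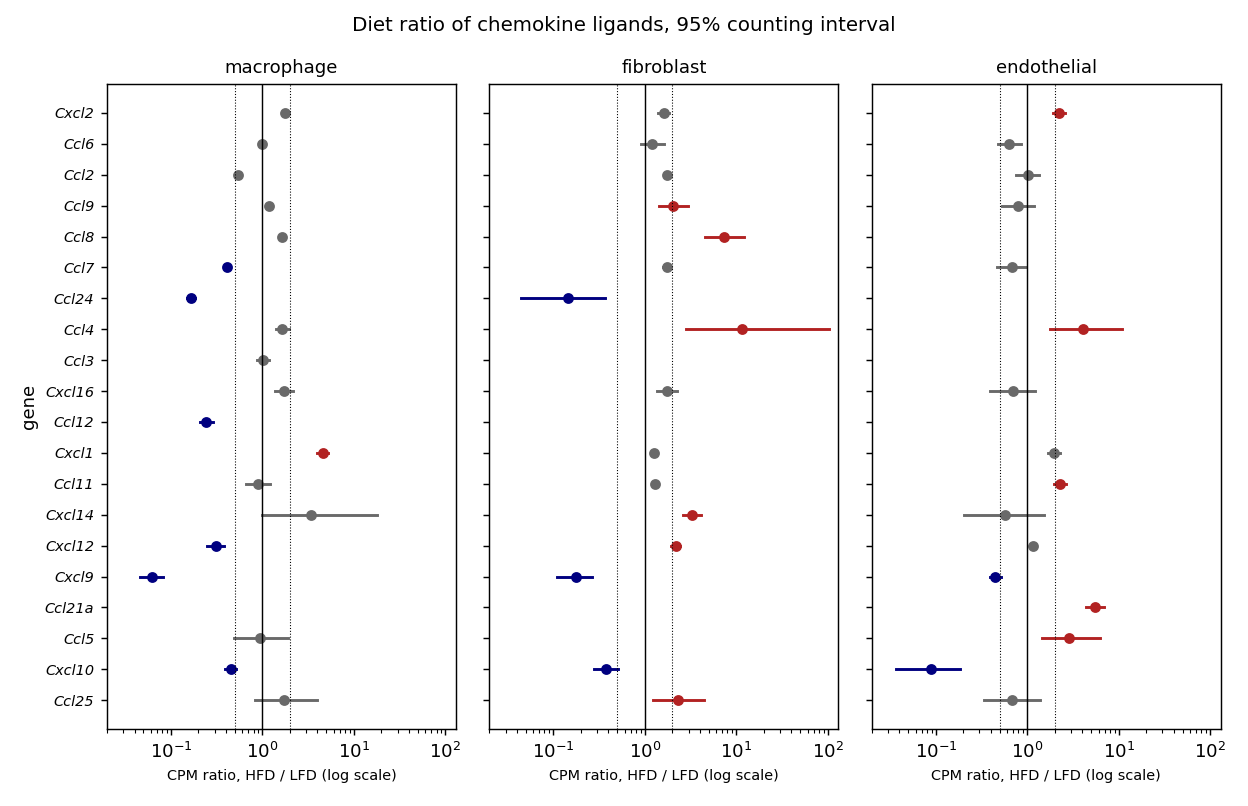
Ratio of CPM, HFD over LFD, on a logarithmic axis for the same 20 ligands in macrophage, fibroblast and endothelial barcodes. Points are ratios with exact 95% counting intervals, red is past the fold upwards, blue past the fold downwards and grey neither. Genes under 20 UMIs or with 0 UMIs in a library have no point. Cxcl1 is the only red point in macrophages, and Cxcl9 and Cxcl10 are blue in all 3 panels.

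In macrophage barcodes 1 of 21 ligands was past the fold upwards on HFD (5.19% of all genes in these barcodes) and 6 downwards (6.8% of all genes). The counts in barcodes of exactly 1 class were 1 and 7 of 19, where 5.89 and 7.13% of all genes were called, and Ccl5, on 26 UMIs, was the added ligand. The median log2 ratio of the ligands was 0.01 and that of all genes was -0.05. The neutrophil attractants were higher. Cxcl1 stood at 135 CPM on LFD (117 to 154) and 612 CPM on HFD (586 to 640), a 4.55-fold higher level (3.95 to 5.26). Cxcl2 stood at 2709 CPM on LFD and 4827 CPM on HFD, 1.78 times as much (1.72 to 1.84), which is short of the fold. Of the macrophage barcodes, 72.3% had a Cxcl2 UMI on LFD (interval 66.1 to 77.9%), while 87.8% had one on HFD (interval 83.9 to 91.1%). In fibroblast barcodes, which gave a low level of this gene, it was seen in 8.25 and 13.2%. After thinning to 1000 UMIs per barcode the macrophage shares were 54.5 and 77.7%.

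The ligands past the fold downwards in macrophages were Cxcl9, Ccl24, Ccl12, Cxcl12, Ccl7 and Cxcl10. Ccl24 stood at 908 CPM on LFD (862 to 956) and 152 CPM on HFD (138 to 166), a ratio of 0.167 (0.150 to 0.185). It was seen in 89.9% of LFD macrophage barcodes and 36.5% of HFD ones, and in 51.9 and 15.5% after thinning. Among fibroblast barcodes 2.58% on LFD and 0.965% on HFD had a Ccl24 UMI. Ccl12 stood at 286 CPM on LFD and 70.0 CPM on HFD, a ratio of 0.245, and Ccl7 at 759 and 312 CPM, a ratio of 0.411. Cxcl12 in macrophages was 155 CPM on LFD and 47.7 CPM on HFD, a ratio of 0.307. Ccl2 was 1402 CPM on LFD (1345 to 1461) and 756 CPM on HFD (726 to 787), a ratio of 0.539 that is short of the fold.

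Cxcl9 and Cxcl10 are ligands of Cxcr3. Cxcl9 was 281 CPM on LFD and 17.6 CPM on HFD, a ratio of 0.0625 (0.0465 to 0.0826), but 275 of the 453 LFD UMIs came from 1 barcode and 13 LFD barcodes had any. Without the barcode with most Cxcl9 in each library the ratio was 0.085. Cxcl10 was 245 CPM on LFD and 110 CPM on HFD, a ratio of 0.449, which became 0.540 and lost the call without the barcode with most Cxcl10 in each library.

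Other ligands seen in macrophages differed less. Ccl6 stood at 1850 and 1811 CPM and Ccl3 at 161 and 162 CPM, with ratios of 0.979 (0.936 to 1.02) and 1.01 (0.864 to 1.17). Ccl9, which like Ccl6 acts on Ccr1, was 1033 CPM on LFD and 1205 CPM on HFD. Ccl8, Ccl4 and Cxcl16 stood 1.66, 1.65 and 1.72 times higher on HFD, all short of the fold. Ccl4 had no called source, at 185 CPM in macrophages and 130 CPM in T cell barcodes over both libraries. Barcodes of no class with NK markers had Ccl4 at 1353 CPM on LFD and 671 CPM on HFD, on 46 and 20 UMIs. Ccl8 was 2.02 times higher without its top barcode in each library, and 296 of its 1374 LFD UMIs came from 1 barcode.

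Immediate early genes, which tissue dissociation is known to raise, took 1.61% of macrophage UMIs on LFD and 0.957% on HFD. All 13 of the listed immediate early genes had lower levels in HFD macrophages, with ratios from 0.372 to 0.818. In fibroblasts these genes took 1.89% of UMIs on LFD and 1.63% on HFD. Their part in the chemokine ratios was not tested.

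The limits on genes and mitochondrial UMIs that the study used (200 to 2500 genes, under 5% mitochondrial) keep 49 LFD and 75 HFD macrophage barcodes, and several ratios depend on them. With these limits 8 of 16 ligands were past the fold upwards in macrophages (6.7% of all genes) and 2 downwards (6.36% of all genes). Cxcl2 stood 2.86 times, Ccl8 5.44 times, Ccl3 3.21 times, Cxcl16 2.47 times and Ccl4 2.39 times higher on HFD, while Ccl2 was at 0.953, and Ccl7 at 0.535 and Ccl12 at 0.533 were no longer past the fold. Cxcl10 turned to 1.57, on 206 UMIs. Cxcl9 turned to 4.72, on 34 UMIs. Ccl24 and Cxcl12 stayed lower, at 0.226 and 0.282, and Cxcl1 stayed higher, at 13.1 times.

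In fibroblast barcodes 7 of 20 ligands were past the fold upwards (2.56% of all genes) and 4 downwards (3.17% of all genes), with a median log2 ratio of 0.74 for the ligands and -0.04 for all genes. In barcodes of exactly 1 class 4 of 17 were upwards (1.87% of all genes) and 4 downwards (3.3% of all genes), with Ccl6 at 0.217, on 42 UMIs, among the latter. Ccl8 had 21 UMIs on LFD and 125 on HFD, with a CPM interval of 3.84 to 9.48 on LFD and of 37.4 to 53.5 on HFD, and stood 7.25 times higher on HFD (4.54 to 12.1). In fibroblast barcodes of no other class the ratio was 7.66, on 16 and 94 UMIs, and with the study's limits it was 1.66, on 17 UMIs. Cxcl14 was 30.4 CPM on LFD and 98.8 CPM on HFD, 3.25-fold higher (2.58 to 4.12), and 10% of the barcodes held 100% of its LFD UMIs and 92.4% of its HFD UMIs. Cxcl12 was 142 CPM on LFD (129 to 155) and 307 CPM on HFD (287 to 328), 2.17-fold higher. It was seen in 49.7% of LFD and 74.3% of HFD fibroblast barcodes, and in 12.3 and 29.8% after thinning. The share in macrophage barcodes was 51.7% on LFD and 21.1% on HFD.

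Ccl2 and Ccl7 were also higher in HFD fibroblasts, although short of the fold. Ccl2 stood at 342 CPM on LFD and 602 CPM on HFD, a ratio of 1.76 (1.63 to 1.90), and Ccl7 at 247 and 429 CPM, a ratio of 1.73 (1.59 to 1.90). As macrophage Ccl7 was lower on HFD, the class with the highest Ccl7 was macrophage on LFD and fibroblast on HFD. Of all Ccl7 UMIs, fibroblast barcodes held 40.7% on LFD and 56.5% on HFD. With the study's limits the fibroblast ratio of Ccl2 was 0.897, on 299 UMIs, and that of Ccl7 was 1.53. The most abundant fibroblast ligands moved little, with Cxcl1 at 1184 and 1479 CPM, a ratio of 1.25 (1.20 to 1.31), and Ccl11 at 1028 and 1343 CPM, a ratio of 1.31 (1.25 to 1.37).

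Cxcl9 in fibroblast barcodes was 51.4 CPM on LFD and 8.98 CPM on HFD, a ratio of 0.175, and Cxcl10 was 58.1 and 21.9 CPM, a ratio of 0.377. In barcodes of exactly 1 class these ratios were 0.190 and 0.465. Ccl25 was 2.29 times higher and Ccl27a was at 0.487, on 49 UMIs each. The remaining fibroblast calls did not last in barcodes of exactly 1 class. Ccl5 had 0 LFD and 43 HFD UMIs, of which 34 were in 1 barcode, and in fibroblast-only barcodes 9 remained. Ccl4 went from 21 UMIs in both libraries to 5, and Ccl24 from 47 to 6. Ccl9 had a ratio of 2.04 in all fibroblast barcodes and 0.696 in fibroblast-only barcodes.

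In endothelial barcodes 6 of 20 ligands were past the fold upwards (2% of all genes) and 3 downwards (1.67% of all genes). Endothelial-only barcodes had 1 of 7 upwards (1.51% of all genes) and 2 downwards (2.29% of all genes). The former was Cxcl2, on 8 LFD and 28 HFD UMIs. Cxcl9 stood at 404 CPM on LFD (373 to 438) and 181 CPM on HFD (162 to 202), a ratio of 0.448 (0.390 to 0.513). It was seen in 73.0% of LFD and 51.3% of HFD endothelial barcodes, against 3.61 and 4.18% of fibroblast barcodes. With the study's limits the ratio was 0.580, no longer past the fold. Cxcl10 had 78 UMIs on LFD and 8 on HFD, a ratio of 0.0879, which was 0.111 in endothelial-only barcodes. Cxcl12 was 608 and 701 CPM, a ratio of 1.15 (1.06 to 1.26). Ccl21a gave a ratio of 5.48, which was 1.57 in endothelial-only barcodes and 1.19 as a mean over barcodes. It was 5.86 (3.60 to 10.1) without the barcode with most Ccl21a in each library, which leaves 1 barcode with this ligand on each diet. With the study's limits all 87 Ccl21a UMIs were on LFD. The other ligands upwards were Ccl11, Ccl5, Ccl4, Cxcl2 and Ccl3, and 38.4% of LFD and 49.1% of HFD endothelial barcodes were also in another class.

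In T cell barcodes 2 of 10 ligands were past the fold upwards (2.92% of all genes) and 3 downwards (3.73% of all genes). T-cell-only barcodes gave 1 and 6 of 10 (2.68 and 5.53% of all genes). Ccl5 had a ratio of 0.855 (0.755 to 0.966) and 1.22 in T-cell-only barcodes. Xcl1 stood at 23.9 CPM on LFD and 277 CPM on HFD, 11.6 times as much, on 8 and 20 UMIs. Cxcl1 stood 4.27 times higher on HFD, on 38 and 35 UMIs, and had 0 HFD UMIs in T-cell-only barcodes. Ccl4 was 150 and 41.6 CPM, on 50 and 3 UMIs, and was not past the fold in T-cell-only barcodes, where the interval was 0.0350 to 1.14. Ccl6 and Ccl24 were lower too, and both had 0 UMIs in HFD barcodes that were T cell only. Cxcl2, Ccl9 and Ccl2 were lower only in T-cell-only barcodes. They had 544, 120 and 35 UMIs there on LFD and 7, 0 and 0 on HFD. The T cell barcodes left out were 1 on each diet, and both also met the macrophage threshold.

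Cd9 marks a macrophage group that the study followed in fibrotic eWAT, and macrophage barcodes were split by the presence of a Cd9 UMI. There were 131 barcodes with Cd9 and 206 without on HFD, with medians of 9537 and 6460.5 UMIs, and 9 against 229 on LFD. On HFD 6 of 20 ligands were past the fold upwards with Cd9 (8.46% of all genes) and 7 downwards (6.12% of all genes). In macrophage barcodes of no other class these counts were 3 and 8 of 17, where 6.47 and 7.41% of all genes were called. Unless stated otherwise, the Cd9 values that follow are for these barcodes, 116 with Cd9 and 204 without.

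**Figure D3:**
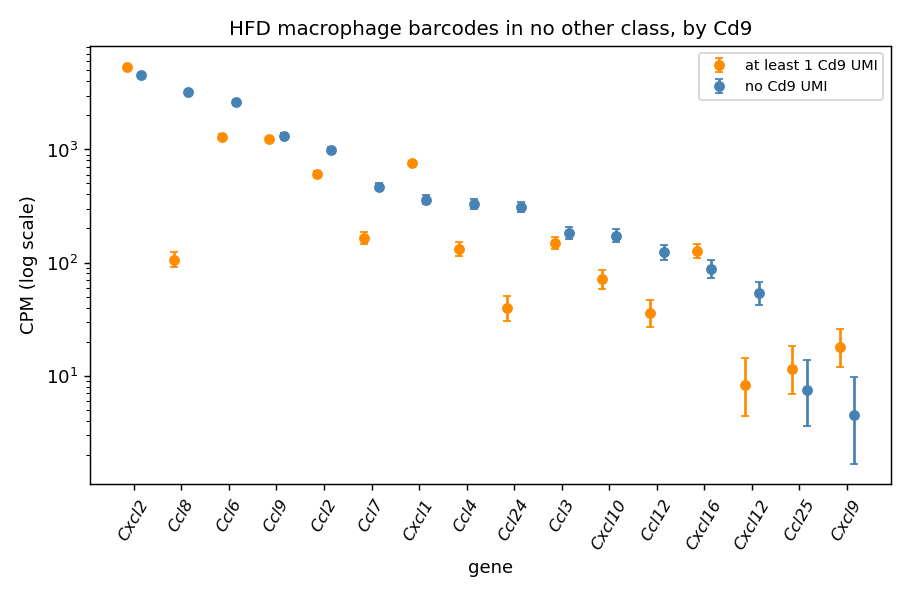
Level of chemokine ligands in HFD macrophage barcodes of no other class, with at least 1 Cd9 UMI (orange) or none (blue), in CPM on a logarithmic axis. Bars are exact Poisson 95% intervals. Ccl8 has the widest gap, 106 CPM with Cd9 and 3222 CPM without.

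Ccl8 stood at 106 CPM with Cd9 and 3222 CPM without, a ratio of 0.0329 (0.0280 to 0.0385). With the study's limits, over all macrophage barcodes, it turned to 1.17, and Ccl7 and Cxcl10 turned as well, as given below. Ccl24 was 39.7 CPM with Cd9 and 310 CPM without, a ratio of 0.128 (0.0963 to 0.167). Ccl12 was 35.8 and 123 CPM, Ccl7 165 and 470 CPM, Ccl4 132 and 329 CPM, and Cxcl10 71.0 and 173 CPM. Ccl6, the most abundant of the lower ligands beside Ccl8, was 1301 CPM with Cd9 and 2645 CPM without. Ccl2 stood at 608 and 993 CPM, a ratio of 0.612 that is short of the fold. Cxcl12 was 8.31 CPM with Cd9 and 53.8 CPM without, on 13 and 72 UMIs. Immediate early genes, described above, took 0.717% of the UMIs of these barcodes with Cd9 and 1.17% without, and their part in this split was not tested.

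Cxcl1 was the most abundant ligand past the fold upwards with Cd9, at 754 CPM against 359 CPM, a ratio of 2.10 (1.89 to 2.34). Over all macrophage barcodes it was short of the fold with the study's limits, at 1.25, and with Cd9 called after thinning, at 1.73. Cxcl9 was 17.9 and 4.48 CPM, on 28 and 6 UMIs. Cxcl13 was 24.3 and 7.47 CPM, with 36 of its 38 UMIs in 1 barcode. Cxcl2 was nearly level at 5371 and 4574 CPM, a ratio of 1.17 (1.14 to 1.21), and so were Ccl9 at 1232 and 1324 CPM and Ccl3 at 149 and 183 CPM. Ccl11, Cxcl14 and Ccl5 were past the fold with Cd9 only while barcodes of other classes were included, of which the Cd9 group held 15 of 131 and the other group 2 of 206. In barcodes of no other class they had 8, 9 and 11 UMIs.

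The diet ratio of Ccl8 differed when the split was made. In macrophages without Cd9 it was 3.38 times higher on HFD, at 3222 against 954 CPM, while with and without Cd9 together it was 1.67 times higher. Ccl24 was lower on HFD without Cd9 as well, with a ratio of 0.325, and Ccl12 had a ratio of 0.394. Cxcl1 without Cd9 was 2.97 times higher on HFD, so the higher level was seen without Cd9 too. Cxcl10 without Cd9 had a ratio of 0.934 (0.779 to 1.12), and over all macrophage barcodes 107 of its 394 LFD macrophage UMIs were in 1 barcode with Cd9. On LFD, over all macrophage barcodes, with 9 Cd9 barcodes of which 5 were in another class, 3 of 17 ligands were past the fold upwards (8.54% of all genes) and 4 downwards (4.09% of all genes), and Ccl8 was again lower with Cd9, at 36.1 against 930 CPM.

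Detection of Cd9 depends on depth. The values under other calls and limits are over all macrophage barcodes. When Cd9 was called after thinning to 1000 UMIs, 46 HFD barcodes had Cd9 and 290 had none, and Ccl8 had a ratio of 0.0308 and Ccl24 of 0.194. Ccl7 turned to 1.19 under this call. Cxcl1 at 1.73, Ccl6 at 0.590, Ccl4 at 0.708, Cxcl10 at 0.578 and Ccl12 at 0.767 were no longer past the fold. Cxcl9 and Ccl5 had 0 UMIs with Cd9, and Cxcl13 turned to 0.206. With the study's limits, which keep 27 barcodes with Cd9 and 48 without, Ccl8 turned to 1.17, Ccl7 to 1.67, Ccl2 to 1.30 and Cxcl10 to 1.20. Cxcl1 at 1.25 and Ccl6 at 0.638 were no longer past the fold. Ccl24 at 0.429, Ccl4 at 0.346 and Ccl12 at 0.0802 stayed past it downwards. Cxcl9 at 45.0 and Cxcl13 at 27.9 were past it upwards, on few UMIs. Even without these limits they had only 49 and 38 UMIs with Cd9 and 7 and 10 without. Most of the Cxcl13 UMIs with Cd9 were in the top barcode.

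**Figure D4:**
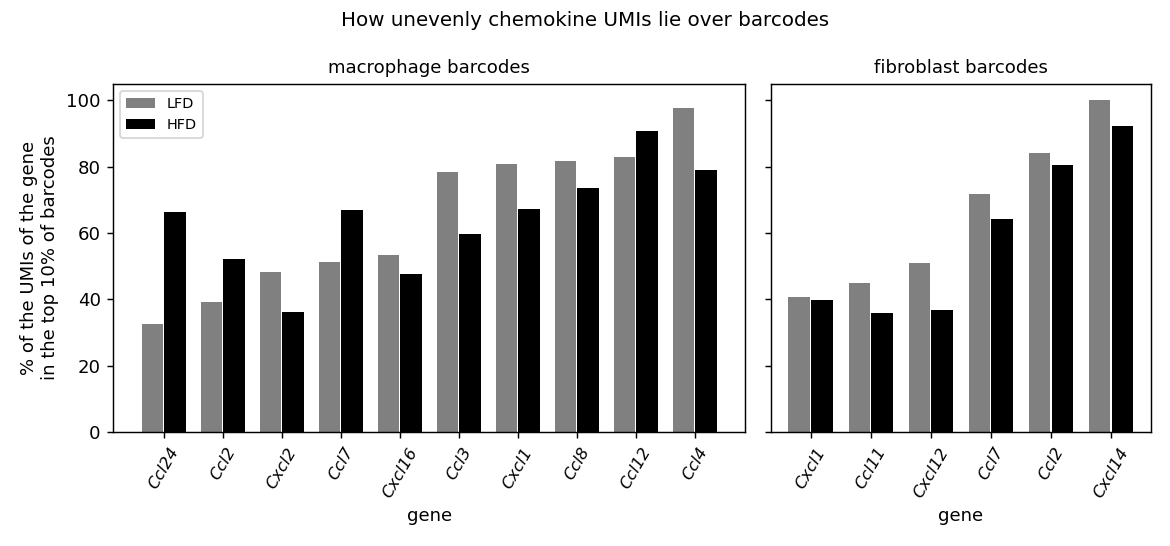
Share of the UMIs of a ligand that lay in the 10% of barcodes with most of it, for macrophage (left) and fibroblast (right) barcodes on LFD (grey) and HFD (black). Ccl24 on LFD is the most even of the macrophage ligands shown, at 32.5%, and Cxcl14 is the least even of the fibroblast ligands.

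Ligands also differed in how evenly barcodes carried them. On LFD the top 10% of macrophage barcodes held 32.5% of Ccl24 UMIs and 39.2% of Ccl2 UMIs, but 81.6% of Ccl8 UMIs and 97.6% of Ccl4 UMIs. The median LFD macrophage barcode had 5 Ccl24 UMIs and 0 Ccl8 UMIs, although their levels in the class as a whole were 908 and 853 CPM. On HFD the median barcode had 0 UMIs of either, and the top 10% of barcodes held 66.3% of Ccl24 UMIs. Cxcl2 went from a median of 6 UMIs on LFD to 29 on HFD. In fibroblasts Cxcl1 and Ccl11 were widespread, with medians of 6 and 5 UMIs on LFD and 7 and 8 on HFD. Ccl2 lay mostly in few fibroblast barcodes, with 84.0% of LFD and 80.6% of HFD UMIs in the top 10%, and its highest HFD barcode held 276 of 1674 UMIs.

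Among the 23 receptors listed, 11 had at least 100 UMIs and Cxcr1 had 0. In macrophages 1 of 8 receptors was past the fold upwards and 1 downwards, where 5.19 and 6.8% of all genes were. Ccrl2, a decoy-type receptor that binds chemerin, was 51.5 CPM on LFD and 191 CPM on HFD, 3.70-fold higher (2.94 to 4.72). Ccr1, the receptor of Ccl3, Ccl6 and Ccl9, was 120 and 46.8 CPM, a ratio of 0.388 (0.312 to 0.483). Ccr2 stood at 233 and 175 CPM. On HFD, Ccr2 was 84.4 CPM in macrophages with Cd9 and 296 CPM in those without, in barcodes of no other class, a ratio of 0.285.

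Among receptors of T cell attractants, Cxcr3 stood at 117 CPM on LFD and 152 CPM on HFD in T cell barcodes, and Cxcr6 at 233 and 139 CPM. Cxcr4, the receptor of Cxcl12, was spread more widely, at 132 and 111 CPM in T cell barcodes and 82.6 and 66.2 CPM in macrophages, which held 133 of 264 LFD and 211 of 313 HFD UMIs. Cxcr3 had 0 UMIs in endothelial barcodes, where its ligand Cxcl9 was highest. Ccr7, the receptor for Ccl19 and Ccl21a, was almost wholly in barcodes of no class, with 55 of 59 UMIs on LFD and 111 of 114 on HFD. The scavenging receptors were highest in fibroblasts. Ackr3, which takes up Cxcl12, was 295 CPM on LFD and 213 CPM on HFD in fibroblasts, a ratio of 0.723, while Cxcl12 was 2.17-fold higher in the same barcodes. In endothelial barcodes Ackr3 was 93.3 and 82.8 CPM. Ackr2 was 33.4 and 18.0 CPM and Ackr1 26.9 and 20.1 CPM in fibroblasts. Of the platelet chemokines whose symbols fall outside the rule, Pf4 stood at 3462 CPM on LFD and 1584 CPM on HFD in macrophages, a ratio of 0.458 (0.440 to 0.475), and Ppbp had 8 and 6 UMIs in all.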

How the data were processed

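The authors processed reads with Cell Ranger (3.0.2 in the file headers, while the methods name a later release) on mm10, and deposited raw UMI counts per gene and barcode for the barcodes called as cells. Counts were used as deposited. The members, classes and lists were chosen with earlier results of these data known. Members with at least 100 UMIs were described with both libraries, those with 20 to 99 by main class and count, and the rest by count. UMIs were summed per class and library and scaled to CPM. Ratios had conditional binomial 95% intervals, and the calculation was tested on simulated data. A gene with 0 UMIs in a library was given as counts. Thinning drew 1000 UMIs per barcode. Python 3.11.15 with numpy 2.4.6, scipy 1.17.1, pandas 2.3.3 and matplotlib 3.10.9 was used, with factors from edgeR 4.0.16 and DESeq2 1.42.0 in R 4.3.3 as alternative scalings. Gene positions came from GENCODE M21. Trac, Trbc1 and Trbc2, planned as T cell check markers, were not used here. Depth was 7356278 UMIs on LFD and 8412325 on HFD. A treatment note in the labels names the low-fat diet for both libraries, and diets were taken from the sample titles and diet labels.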

Additional observations from a re-analysis of the deposited data

Results flagged for a closer look

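The diet ratio had intervals on opposite sides of 1 in different classes for 5 of 20 ligands (25%). These 20 had at least 20 UMIs in 2 or more of the fibroblast, endothelial, macrophage and T cell classes. Such intervals were found for 4.77% of all genes that met this minimum. Those genes were not matched to the ligands in UMIs, on which the width of an interval depends. The count was not made for barcodes of exactly 1 class. The difference between classes was not tested, since there is 1 library per diet. Ccl2 stood at 1.76 in fibroblasts and 0.539 in macrophages. Ccl7 stood at 1.73 in fibroblasts, 0.679 in endothelial barcodes and 0.411 in macrophages. Cxcl12 stood at 2.17 in fibroblasts and 1.15 in endothelial barcodes, and at 0.307 in macrophages. Ccl4 stood at 11.6 in fibroblasts, 4.04 in endothelial barcodes and 1.65 in macrophages, and at 0.278 in T cell barcodes. Ccl5 had 0 UMIs in LFD fibroblast barcodes, and its ratio there was 17.5 with 3 counts in place of 0. It stood at 2.88 in endothelial barcodes and 0.855 in T cell barcodes. The endothelial value of Ccl7 and the fibroblast and endothelial values of Ccl4 and Ccl5 rest on barcodes that met several class thresholds. In barcodes of exactly 1 class Ccl7 had 1 endothelial UMI, Ccl4 had 5 fibroblast UMIs and Ccl5 had 9. In T-cell-only barcodes Ccl5 stood at 1.22 (1.07 to 1.38), and the interval of Ccl4 was 0.0350 to 1.14.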

How the results depend on the processing

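No paired analysis was possible because each diet had 1 library, and leaving out a library leaves no comparison. Of 912 log2 ratios of single ligands recomputed, by diet in each class and by Cd9 on HFD, 864 kept their sign. Another 36 changed sign but had not been past the fold, and 12 that had been past it reversed, taking 3 counts in place of 0. By diet, Ccl9 in fibroblasts became -0.52 and Cxcl1 in T cells -0.82 in barcodes of exactly 1 class, and with the study's limits Ccl21a in endothelial barcodes became -5.29, Cxcl9 in macrophages 2.24 and Cxcl10 in macrophages 0.65. By Cd9, the study's limits gave 0.22 for Ccl8, 0.74 for Ccl7 and 0.26 for Cxcl10. Calling Cd9 after thinning, an alternative added after the data were seen, gave 0.26 for Ccl7, -0.98 for Ccl5, -1.98 for Cxcl9 and -2.28 for Cxcl13. Of 181 counts, 134 stayed within 1.5 times. The cause of the changes below was not tested.

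In barcodes of exactly 1 class, 3 ligands had an endothelial source, 4 were higher on HFD in fibroblasts, 1 in endothelial barcodes and 1 in T cells, 6 were lower in T cells, and 3 were higher with Cd9 on HFD. With the study's limits these were 1 endothelial source (1.47% of all genes) and 2 higher and 0 lower in fibroblasts (2.67 and 2.56%). The counts were 2 and 1 in endothelial barcodes (3.66 and 2.14%), 8 and 2 in macrophages (6.7 and 6.36%) and 0 and 0 in T cells (1.25 and 2%). With Cd9 the counts were 1 higher on LFD (1.91%), and 2 higher and 3 lower on HFD (2.92 and 4.02%). Without the top barcode of each library they were 1 endothelial source, 2 higher in macrophages, 0 higher and 5 lower in T cells, 10 lower with Cd9 on LFD and 3 higher with Cd9 on HFD. As means over barcodes, which have no interval and were called by the fold alone, they were 1 endothelial source, 6 higher in macrophages, 1 higher and 5 lower in T cells, and 2 lower with Cd9 on HFD. With class thresholds doubled they were 1 endothelial source (0.116% of all genes), 2 higher in macrophages (5.24%) and 1 lower in T cells (3.9%). A minimum of 50 UMIs gave 4 higher and 2 lower in fibroblasts (1.51 and 2.21% of all genes) and 3 higher in endothelial barcodes (1.36%). It also gave 1 higher in T cells (2.37%) and 3 higher with Cd9 on HFD (6.95%). No minimum gave 2 higher in macrophages and 5 higher with Cd9 on LFD. TMM and DESeq2 factors each gave 2 higher in macrophages and 7 lower with Cd9 on LFD. A limit of 20% mitochondrial UMIs, and CPM without mitochondrial and ribosomal protein UMIs, each gave 2 higher in macrophages. Cd9 called after thinning gave 7 lower with Cd9 on LFD and 2 higher on HFD.

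Across these settings the share of all genes called had the ranges that follow, apart from the top barcode, which was left out for the ligands alone and has no such share, and from ratios of means over barcodes. An endothelial source was called for 0.0176 to 5.64% of all genes. The share higher on HFD was 1.51 to 2.75% in fibroblasts, 1.36 to 3.66% in endothelial barcodes, 3.81 to 6.7% in macrophages and 1.25 to 3.02% in T cells. The share lower on HFD was 2.21 to 3.3% in fibroblasts, 0.837 to 2.29% in endothelial barcodes, 5.61 to 7.13% in macrophages and 1.04 to 5.53% in T cells. With Cd9 it was 2.92 to 8.81% higher and 4.02 to 7.41% lower on HFD, and 1.91 to 9.58% higher and 0.673 to 6.61% lower on LFD. Called by the fold alone, means over barcodes gave shares of 6.67% higher in macrophages, 7.92% higher and 19.3% lower in T cells, and 6.09% lower with Cd9 on HFD.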
